A study of Rattus norvegicus with 16 samples.

Results

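MiR-181a and miR-181b are 2 members of the miR-181 family of small RNAs, and both were measured in a fast and a slow hindlimb muscle of young and old rats. They were found on the arrays as the non-control spots annotated rno-miR-181a and rno-miR-181b, which gave 2 of 677 miRNAs and 4 of 1644 probes. They were chosen by their measured signal and detection in the 2 muscles, so the difference between soleus and extensor digitorum longus (EDL) is described here without a test. The groups were the soleus of old rats, the soleus of young rats, the EDL of old rats and the EDL of young rats, with 4 samples in each and 1 array per sample. All were male Fischer 344 rats with no treatment named, aged 25 to 28 months (old) or 6 to 7 months (young). Each array received Cy3-labelled miRNA made from 0.1 ug of total RNA of a whole muscle. In such bulk RNA, fewer cells of a type and less RNA per cell cannot be told apart. The labels do not say whether the numbered samples came from separate rats, so errors and p-values measure the spread between these samples.

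MicroRNAs are short RNAs that guide Argonaute proteins to messenger RNAs, mainly through the seed near their 5′ end, and lower the output of those messages. The miR-181 family is best known from lymphocytes, where miR-181a in mice tunes the sensitivity of the T cell receptor. In mouse myoblasts miR-181 rises during differentiation and represses Hoxa11, a homeobox gene that holds differentiation back.

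The 4 guide strands of the family are shown because they share 1 seed and differ in few bases, which is what the probes have to tell apart. The sequences are those of RefSeq (GRCr8), where the array's miR-181a is named miR-181a-5p, and likewise for the others. Capitals mark the seed, bases 2 to 8.
miR-181a: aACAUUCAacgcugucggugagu
miR-181b: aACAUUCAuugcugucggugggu
miR-181c: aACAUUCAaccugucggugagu
miR-181d: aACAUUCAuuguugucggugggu
MiR-181a and miR-181b, each 23 bases long, differ at 3 positions counted from the 5′ end, A9U, C10U and A21G with the base of miR-181a first. MiR-181b and miR-181d differ at 1 position, C12U. MiR-181c, with 22 bases, can be lined up with miR-181a with all 22 bases shared in order. These were the only 4 of 693 mature miRNA names in the RefSeq table that carry the seed ACAUUCA. With so few differences, signal on the probe of 1 member from RNA of another was not tested.

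Each of the 2 miRNAs has 2 annotated hairpin genes in the rat genome (GRCr8), and the mature miR-181b shown above is the entry of Mir181b1. Mir181a2 lies at chr3:43025563-43025679 and Mir181b2 986 bases further on at chr3:43026666-43026753. Both lie within the span of Nr6a1, which encodes an orphan nuclear receptor, and of the long noncoding RNA gene LOC120101539. Mir181a-1 lies at chr13:52037067-52037166 and Mir181b1 61 bases further on at chr13:52037228-52037337, within the long noncoding RNA gene LOC108352541. The guide strand of miR-181a is the same from both of its loci, so its signal does not say which locus it came from. The other arm of the hairpin, the passenger strand, does differ between the 2 loci, as the RefSeq sequences show (capitals mark bases 2 to 8).
miR-181a-1-3p: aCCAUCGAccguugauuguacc
miR-181a-2-3p: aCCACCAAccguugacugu
On the array these arms carry the older names miR-181a-1* and miR-181a-2*. Neither was measurable: none of the 312 spots of miR-181a-1* or the 304 spots of miR-181a-2* was well above background on any array.

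Values are Agilent's processed signal, the brightness of a spot after background treatment, averaged over the spots of a probe (10 per array for these miRNAs, less outliers). A probe was called detected on an array when over 0.5 of its spots were flagged well above background. The arrays differed in brightness. The 75th percentile of the probes detected on all 16 arrays ranged from 400.4 to 471.8 on old soleus arrays, from 290.1 to 680.9 on young soleus arrays, from 866.2 to 1830 on old EDL arrays and from 589 to 1864 on young EDL arrays. Detected miRNAs numbered 58 to 85 on soleus arrays and 83 to 138 on EDL arrays. Signals were therefore divided by each array's own percentile, giving the scaled signal. All EDL arrays lay on 1 slide, young in 1 column and old in the other, and the old soleus and young soleus arrays each lay on a slide of their own. Slide or column and group cannot be told apart. The muscles carried their labels' markers: all 4 striated muscle miRNAs were detected on every array, and miR-499, which sits in a slow myosin gene, had scaled signals of 0.277 to 0.394 in old soleus and 0.396 to 0.625 in young soleus, against 0.019 to 0.0359 in old EDL and 0.0108 to 0.0371 in young EDL.

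MiR-181a was low in soleus and higher in EDL at both ages. Its brighter probe had scaled signals of 0.0416, 0.0453, 0.0495 and 0.0515 on the old soleus arrays, against 0.1, 0.0883, 0.105 and 0.102 on the old EDL arrays. In young rats it had 0.0423, 0.0563, 0.0664 and 0.0711 in soleus, against 0.119, 0.119, 0.114 and 0.124 in EDL. Every soleus array lay below every EDL array, and the young soleus arrays spread most. The means were 0.047 ± 0.00439 in old soleus, 0.059 ± 0.0128 in young soleus, 0.0991 ± 0.00743 in old EDL and 0.119 ± 0.00411 in young EDL (SD, n = 4 each). From high to low the groups ran young EDL, old EDL, young soleus, old soleus, and of neighbours in that order only the 2 soleus groups overlapped. This order includes the undetected soleus arrays at their measured values.

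**Figure D1:**
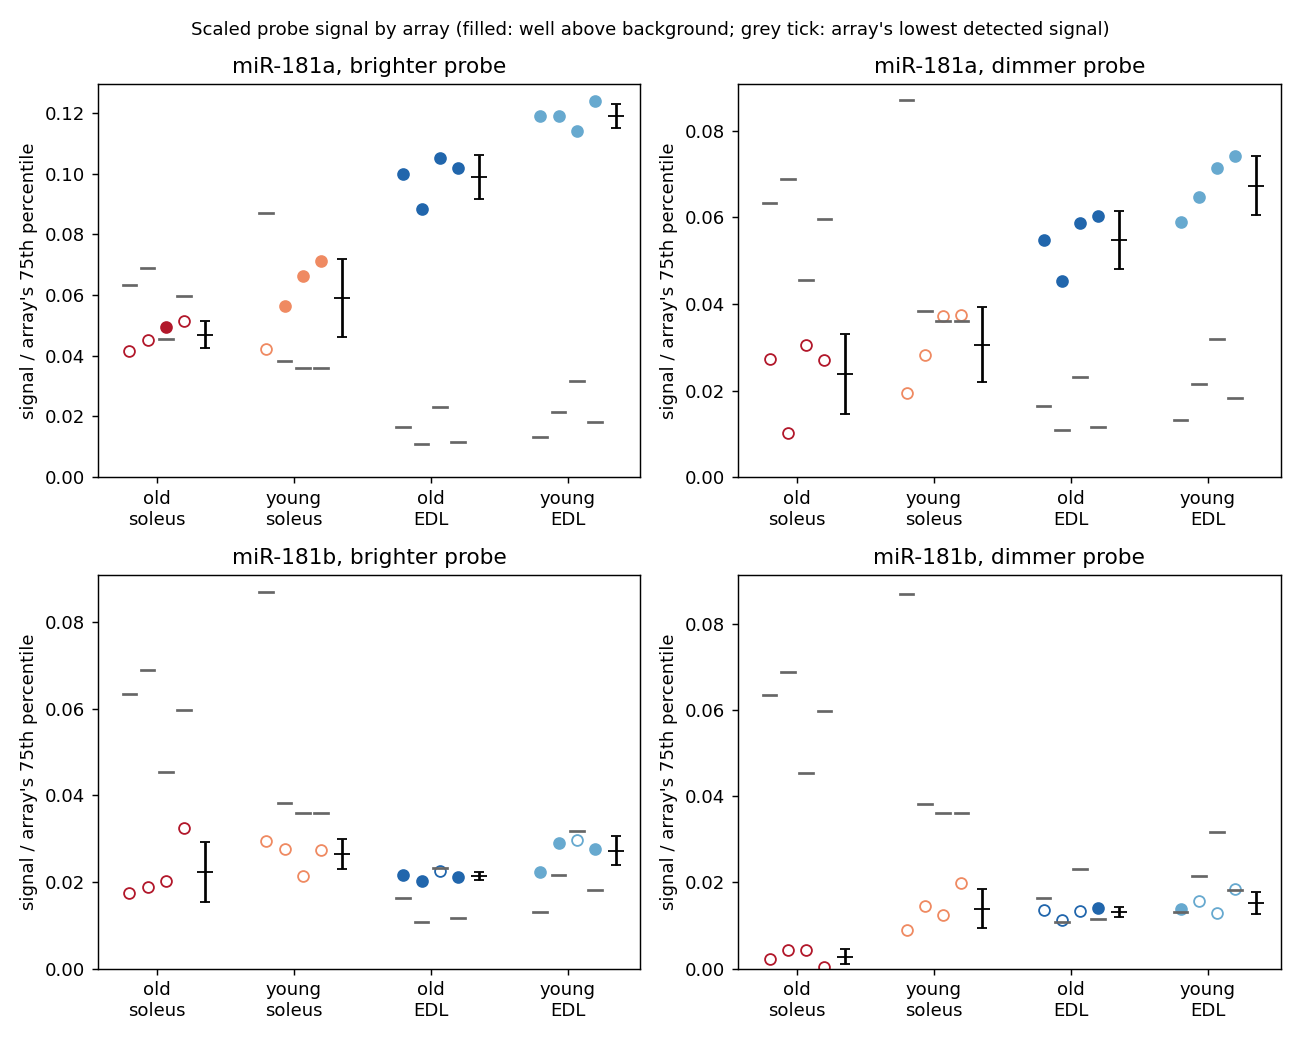
Scaled signal (vertical axis, signal divided by the array's 75th percentile) of both probes of miR-181a and miR-181b on each of the 16 arrays, in old soleus, young soleus, old EDL and young EDL. Filled points were well above background and open points were not, grey ticks mark each array's lowest detected signal, and black bars give mean ± SD (n = 4). The brighter miR-181a probe lay at 0.0416 to 0.0711 in soleus and 0.0883 to 0.124 in EDL.

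Detection differed along with the level. The brighter miR-181a probe was well above background on 1 of 4 old soleus and 3 of 4 young soleus arrays, and on 4 of 4 arrays in old EDL and in young EDL. Over single spots, 9 of 38 (23.7%) in old soleus and 29 of 38 (76.3%) in young soleus were well above background, against 39 of 39 in old EDL and 37 of 37 in young EDL. The levels on the 4 soleus arrays without detection are therefore imprecise, with a CV between spots of 19.3% to 34.9%. Feature Extraction's own gene-level call was more generous and gave miR-181a as detected on 3 of 4 old soleus and 3 of 4 young soleus arrays.

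Soleus minus EDL, the log2 difference of miR-181a was -1.08 ± 0.14 in old rats and -1.04 ± 0.14 in young rats (limma SE), which is 0.474 and 0.487 times the EDL level. These values include the soleus arrays that did not detect it, 3 old and 1 young. The muscles differed in many miRNAs: 61.7% of the 115 passed the test in old rats (39.1% lower in soleus) and 55.7% in young rats (31.3% lower), so a difference as such was common, and nothing is read from it as these levels chose the members. Groups failed to overlap for 56.5% of tested miRNAs in old rats (33.9% lower in soleus) and 39.1% in young rats (20.9% lower). The median over all tested miRNAs was -0.20 in old rats and -0.05 in young rats. With the 4 undetected soleus arrays set to their own lowest detected signal, the differences were -0.72 in old and -0.78 in young rats. EDL was then 1.65-fold and 1.71-fold higher under this scaling. These values are no strict bounds, as an undetected probe can exceed an array's lowest detected signal. On young soleus 9 the dimmer miR-181a probe was undetected at 25.3, where the lowest detected signal was 24.5. Other settings gave larger, smaller or reversed differences. Without scaling the differences were -2.74 in old and -2.05 in young rats. Median centring gave -0.65 in old rats, spike-in scaling gave -0.43 in young rats, and normexp gave 0.11 in old and -0.50 in young rats.

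The second probe of miR-181a, dimmer throughout, was detected on 0 of 8 soleus arrays and on all 8 EDL arrays. Its scaled signal was 0.0103 to 0.0306 in old soleus and 0.0194 to 0.0375 in young soleus, against 0.0453 to 0.0604 in old EDL and 0.059 to 0.0741 in young EDL. The soleus values are not well above background. In old rats the lowest detected signals of the soleus arrays averaged log2 -4.09, above this probe's old EDL mean of -4.20. In young rats they averaged -4.46, below its young EDL mean of -3.90. As no soleus array detected this probe, no fold between the muscles is given for it at either age.

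The size of the muscle difference moved with how arrays were scaled. Before scaling, miR-181a had processed signals of 16.9, 18.8, 23.3 and 20.6 in old soleus and 12.3, 28.4, 45.2 and 47.8 in young soleus, against 127, 151, 91.1 and 187 in old EDL and 222, 122, 67.1 and 181.1 in young EDL. Across the 8 arrays of a muscle these signals followed array brightness, with Pearson's r on the log2 scale of 0.98 in soleus and 0.96 in EDL, given as a description since the percentile and the signal share an array. The scaled signal still followed brightness in soleus (r = 0.91) and hardly in EDL (r = -0.22). The dimmest EDL array, young EDL 9, had a percentile of 589 and a miR-181a signal of 67.1. Young soleus 9 and 10 were brighter by this percentile, at 680.9 and 672.2, and had lower miR-181a signals of 45.2 and 47.8. Spike-in spots did not order these arrays alike. The spike-in dmr_285 gave 194 on young EDL 9 against 175 and 186, while dmr_31a gave 115 against 121 and 129. With brightness as a covariate the difference was -0.79 in old rats and -0.84 in young rats. Scaling on spike-in spots gave -0.72 in old rats and -0.43 in young rats. The split of all calls moved too: 26 miRNAs were higher and 45 lower in old soleus in the main setting, against 38 and 21 with spike-ins, 48 and 20 when centred on the median and 1 and 95 without scaling. In young rats it was 28 higher and 36 lower, against 70 and 5 with spike-ins, 35 and 26 when centred, 25 and 55 with quantile normalisation and 2 and 65 without scaling. Another background correction, normexp on the raw spot signals, turned the old-rat difference to 0.11 while the median over all miRNAs moved to 0.47.

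**Figure D2:**
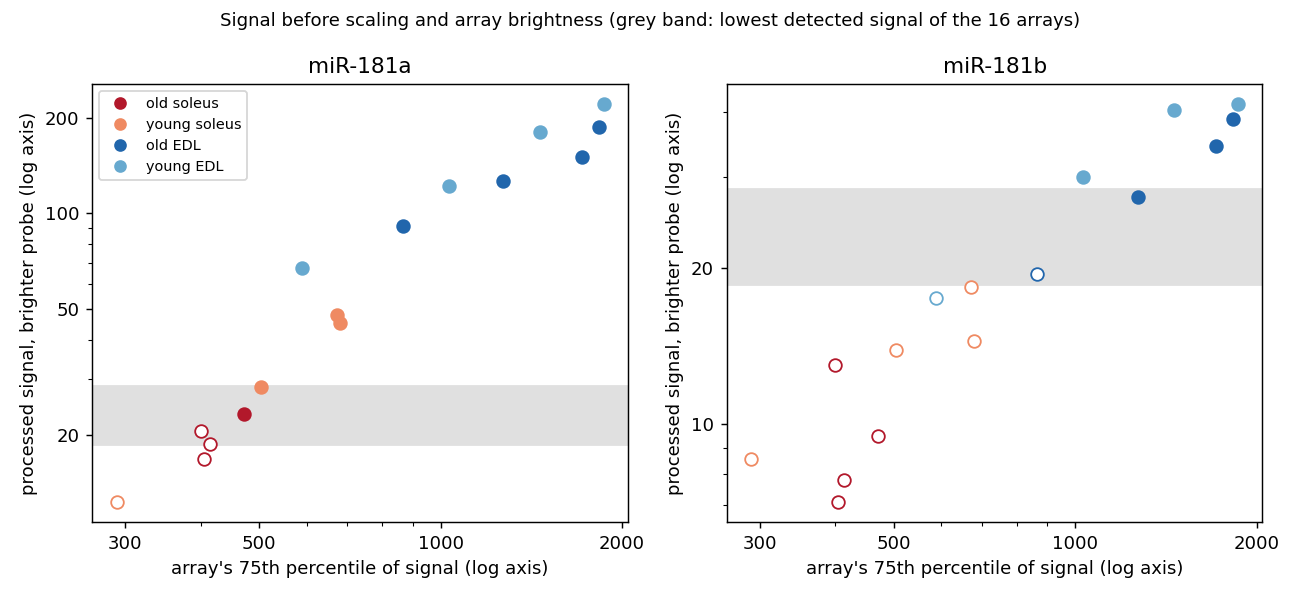
Processed signal of the brighter probe before scaling (vertical log axis) against the array's 75th percentile (horizontal log axis) for miR-181a and miR-181b in old soleus, young soleus, old EDL and young EDL, with filled points well above background and the grey band spanning the lowest detected signals of the 16 arrays. MiR-181a lay above the band on all 8 EDL arrays, while all 8 miR-181b points of soleus lay below it.

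MiR-181a was lower in old than in young EDL on every array, without passing the test. The highest old EDL array had a scaled signal of 0.105 and the lowest young EDL array 0.114. Old minus young, the log2 difference was -0.27 (limma SE 0.14, 95% interval -0.56 to 0.02), a fold of 0.831, with adjusted p = 0.259 in limma over 115 miRNAs. In this comparison 11.3% of tested miRNAs passed, 1.74% as lower in old EDL, and 13.9% did not overlap between the groups, 4.35% as lower. The dimmer probe differed by -0.30 and its groups overlapped. Before scaling the groups overlapped widely and the difference was -0.00, while the median of all tested miRNAs was 0.29 higher in old EDL. Taken against the median of all tested miRNAs, miR-181a was lower in old EDL by 0.22 to 0.40 on the log2 scale under every setting that kept all arrays.

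In soleus miR-181a also had lower values in old rats, and here the groups overlapped. The log2 difference of old minus young was -0.31 (limma SE 0.14, 95% interval -0.60 to -0.02), a fold of 0.808, with limma's adjusted p = 0.199. Of the tested miRNAs 5.22% passed in this comparison (1.74% lower) and 22.6% did not overlap (13% lower). Young soleus 7, the dimmest of the 16 arrays, had the lowest young value, and without it the difference was -0.46 with limma's adjusted p = 0.0408. Leaving out any other soleus array gave -0.35 to -0.21, with limma's adjusted p from 0.202 to 0.466. With undetected arrays at their own lowest detected signal the difference was -0.21 (adjusted p = 0.315, limma). Scaling on the spike-in spots gave -0.61 with adjusted p = 0.00172 in limma, where the median of all tested miRNAs fell to -0.28. The age difference did not differ between muscles beyond its error: soleus minus EDL it was -0.04 (limma SE 0.19, 95% interval -0.45 to 0.37, adjusted p = 0.939), in a comparison where 1.74% of miRNAs passed.

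**Figure D3:**
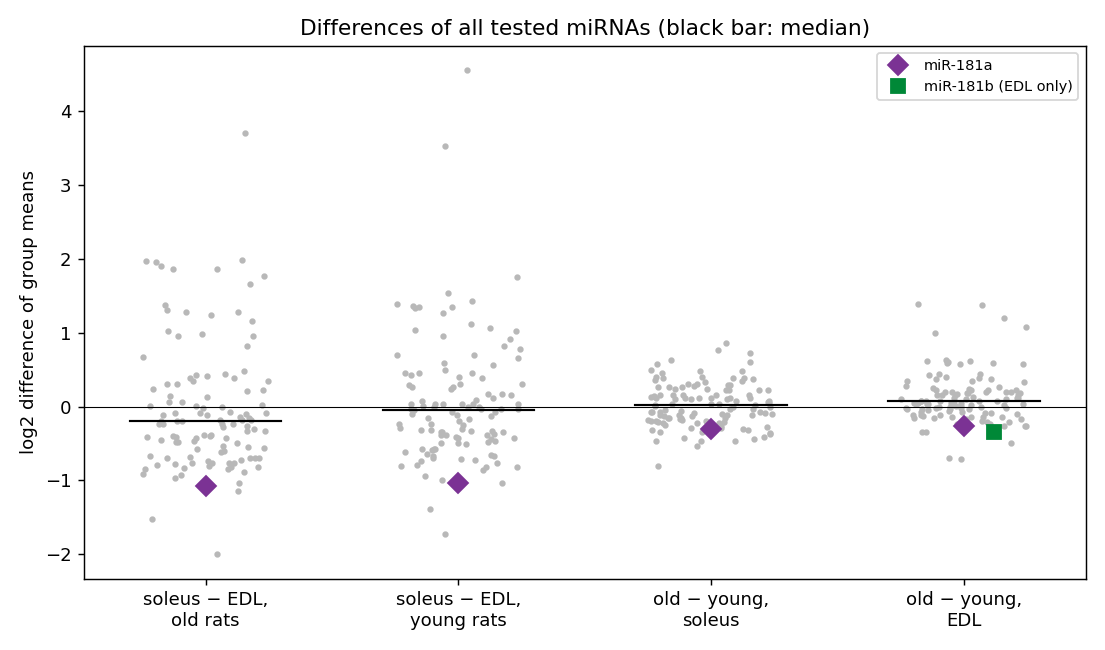
Log2 difference of group means (vertical axis) of the 115 tested miRNAs in 4 comparisons, each a grey point, with the median as a black bar, miR-181a as a diamond and miR-181b, in EDL alone, as a square. MiR-181a lay at -1.08 and -1.04 in the comparisons of soleus with EDL and at -0.31 and -0.27 in those of old with young muscle.

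MiR-181b, which shares the seed and so in principle many targets, was measurable in EDL alone. Its brighter probe was detected on 0 of 4 old soleus and 0 of 4 young soleus arrays, against 3 of 4 in old EDL and 3 of 4 in young EDL. Over spots, 0 of 40 in old soleus and 2 of 39 (5.13%) in young soleus were well above background, against 30 of 38 (78.9%) in old EDL and 33 of 39 (84.6%) in young EDL. Of the 97 miRNAs detected on 6 or more EDL arrays, 15 were, like miR-181b, detected on no soleus array and 56 on all 8. The 2 undetected EDL arrays, old EDL 3 and young EDL 9, were the dimmest of the 8.

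Detection in EDL and not in soleus is no measure of a difference for miR-181b. Its processed signals were 7.07, 7.79, 9.51 and 13 in old soleus and 8.56, 13.9, 14.5 and 18.4 in young soleus, against 27.5, 34.5, 19.5 and 38.8 in old EDL and 41.6, 30, 17.5 and 40.4 in young EDL. After scaling these became 0.0175 to 0.0324 in old soleus, 0.0213 to 0.0295 in young soleus, 0.0201 to 0.0225 in old EDL and 0.0223 to 0.0297 in young EDL, and the muscles overlapped at both ages. The lowest detected signal of the soleus arrays averaged log2 -4.09 in old and -4.46 in young rats (scaled), above the measured EDL means of -5.55 and -5.21. A soleus level equal to that of EDL would thus have gone undetected, and no fold between the muscles is given. Feature Extraction's gene-level call was 0 of 4 in old soleus and 2 of 4 in young soleus, against 4 of 4 in old EDL and 4 of 4 in young EDL.

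With age, miR-181b in EDL differed about as much as miR-181a and likewise did not pass. The brighter probe had scaled signals of 0.0217, 0.0201, 0.0225 and 0.0212 in old EDL, against 0.0223, 0.029, 0.0297 and 0.0277 in young EDL. The highest old array, old EDL 3, and the lowest young array, young EDL 7, overlapped by 0.01 on the log2 scale, and the rest of the groups were apart. Old EDL 3 and young EDL 9, each the highest of its group, did not detect miR-181b and entered at their measured values. Their lowest detected scaled signals were 0.0232 and 0.0318. Across the 8 EDL arrays the scaled signal of miR-181b ran against array brightness (r = -0.64). Old minus young was -0.34 (limma SE 0.17, 95% interval -0.70 to 0.02), a fold of 0.791 with limma's adjusted p = 0.256. Quantile normalisation gave -0.48 with limma's adjusted p = 0.00927, and a higher floor for dim values (the median over arrays of the lowest detected signal, in place of the lowest of any array) hid all 8 arrays and gave -0.00. The dimmer probe was detected on 1 of 4 old EDL and 1 of 4 young EDL arrays, and no difference is given for it. In soleus both ages were below background and no fold is given.

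The difference between the log2 signals of miR-181b and miR-181a on 1 array cannot be moved by scaling, and only its change between groups is read here, as probes bind with unequal strength. It was -2.21 ± 0.06 in old EDL (range -2.27 to -2.14) and -2.14 ± 0.21 in young EDL (range -2.42 to -1.94, SD, n = 4 each). The old range lay within the young range.

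The other members of the family gave no measurable signal in either muscle. MiR-181c had 0 of 307 spots and miR-181d 0 of 310 spots well above background, with array means of -5.1 to 11.2 and -3.44 to 13.2 in processed signal. The 6 passenger strands of the family had 0 of 1850 spots, with array means of -11.1 to 5.1. The lowest detected signals of the arrays were 18.6 to 28.5, so lower levels of these RNAs were not detectable here.

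The miRNAs whose scaled levels ran most like miR-181a over the 16 arrays were miR-30a* (r = 0.96), miR-100, miR-30a, miR-16 and miR-145 (r = 0.95 each), of 114 compared. This is a description, as the arrays share their scaling and mostly differ by muscle. Soleus minus EDL, the 5 differed by -1.14 (miR-100) to -0.79 (miR-145) in old rats and by -0.99 to -0.67 in young rats. With group means removed the most alike were miR-140* (r = 0.84), miR-320 and miR-212 (r = 0.82 each), miR-145 and miR-30e* (r = 0.81 each). These likenesses rest partly on undetected soleus values. MiR-140* was detected on 1 old and 2 young soleus arrays, miR-320 on 0 and 0, and miR-212 on 0 and 1. MiR-145 was detected on 1 old and 3 young soleus arrays, and miR-30e* on 2 and 3. MiR-181b ranked 67th at r = 0.18 over the 16 arrays, 10 of which did not detect it.

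MiR-145 is also a smooth muscle marker, and it was lower in soleus along with the other smooth muscle marker, miR-143. Soleus minus EDL in old rats, miR-145 differed by -0.79 and miR-143 by -0.74 (adjusted p = 2.20e-04, limma for miR-143). No p is given for miR-145, as it is named here for a likeness to miR-181a that mostly follows muscle. It was detected on 1 of 4 old soleus and 3 of 4 young soleus arrays. The summed scaled signal of the 2 smooth muscle miRNAs was 0.41 to 0.528 in old soleus and 0.473 to 0.597 in young soleus, against 0.641 to 0.849 in old EDL and 0.621 to 0.836 in young EDL, with both detected on at least 1 array of every group. The 2 endothelial miRNAs summed to 0.393 to 0.483 in old soleus and 0.427 to 0.513 in young soleus, against 0.489 to 0.708 in old EDL and 0.464 to 0.645 in young EDL, overlapping between the muscles in young rats alone. Leukocyte markers, 4 of the 5 listed being on the array and 2 or 3 of these detected in a group, summed to 0.268 to 0.355 in old soleus and 0.26 to 0.336 in young soleus, against 0.297 to 0.354 in old EDL and 0.261 to 0.29 in young EDL. Within the leukocyte sum the detected markers ran opposite ways: soleus minus EDL in old rats, miR-150 differed by -0.73 (adjusted p = 5.36e-05, limma) and miR-223 by 0.96 (adjusted p = 0.00156, limma). In young rats miR-150 differed by -0.31 (adjusted p = 0.0228, limma) and miR-223 by 0.95 (adjusted p = 0.00225, limma). Neither of the 2 neural miRNAs was detected in any group. The part of these cells in the miR-181a result was not tested.

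**Figure D4:**
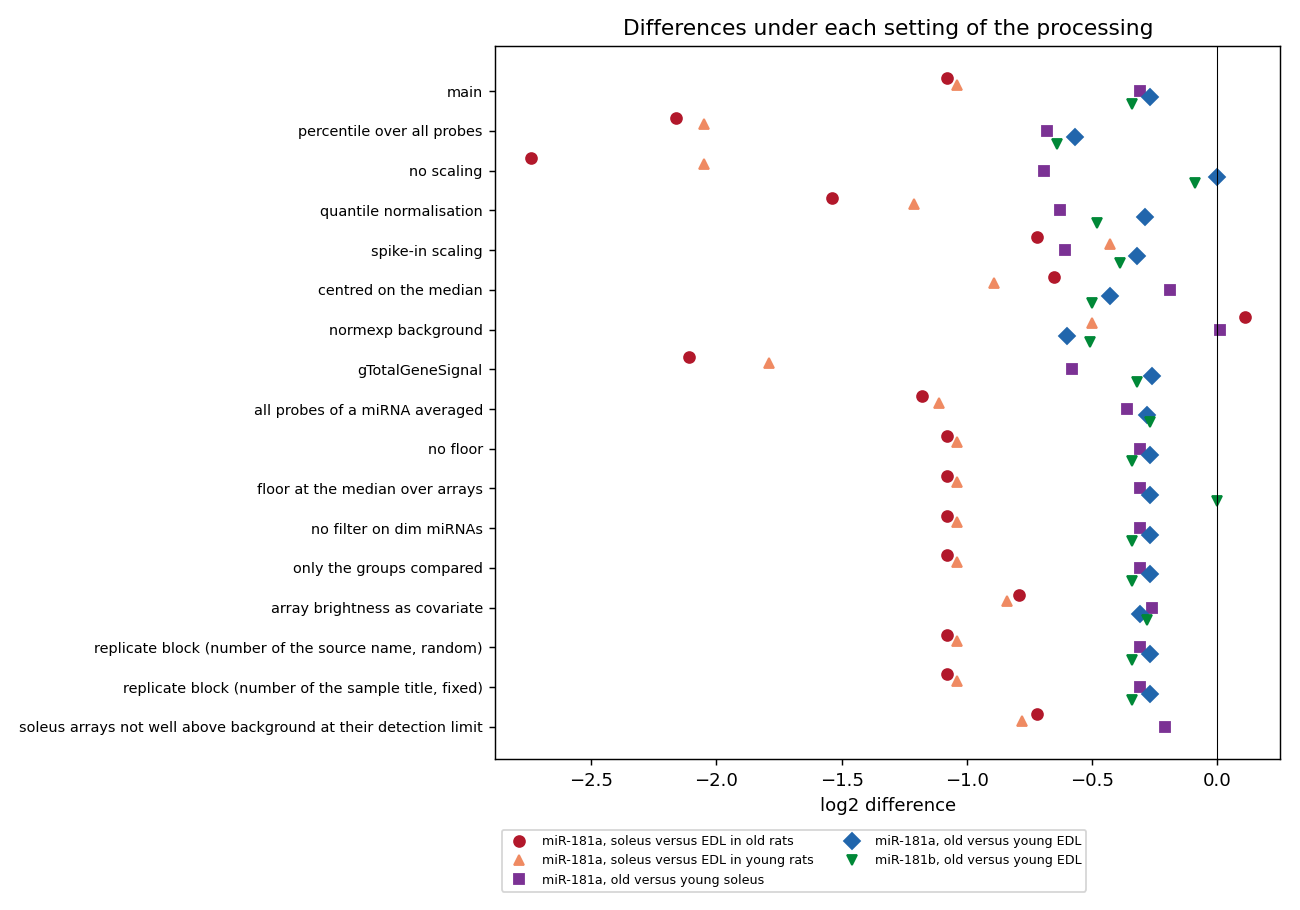
Log2 difference (horizontal axis) of 5 comparisons under each setting that left out no array of the groups compared (one row per setting). They are miR-181a between soleus and EDL in old and young rats and between old and young muscle, and miR-181b between old and young EDL. The comparison of soleus with EDL in old rats ran from -2.74 without scaling to 0.11 with normexp background correction, while the EDL age difference of miR-181a stayed between -0.60 and -0.00.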

How the data were processed

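MiRNA was measured on 16 Agilent 1-colour arrays. Per the file headers, the authors quantified spots with Agilent Feature Extraction 10.7.3.1 (10.7 in the submitters' processing notes), on a grid of build rn4. The deposited intensity used is the processed signal, some of it below 0, and the headers record no step that scales arrays to each other. The deposited value table equalled it in 100% of cells.

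Control spots and outlier spots (3.06%) were left out and no spot was saturated. Signals were averaged per probe, divided by the array's 75th percentile over the 95 probes well above background on all arrays, floored at 0.01083 (log2 -6.53, the lowest detected signal of any array) and converted to log2. The brightest probe stood for a miRNA, and 115 of 677 miRNAs, well above background on 4 or more arrays, were tested. All 4 groups of 4 entered 1 limma fit (limma 3.58.1, R 4.3.3), two-sided, with Benjamini-Hochberg adjustment at 0.05. The fit was tested on simulated data. The number of arrays limits the precision. Replicates correlated at 0.961 to 0.998 and no pair was identical.

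The members, lists and settings were chosen with earlier results of these data known. Genes named were the members, the rest of the family and the 5 miRNAs most correlated with miR-181a, over all arrays and with group means removed. Marker lists covered striated muscle, slow fibre, leukocyte, erythroid, endothelial, smooth muscle and neural cells. Their sums were described only, and limma p-values are given for miR-143, miR-150 and miR-223 alone. The erythroid sum was 0.0163 to 0.123 in old soleus and 0.0247 to 0.0293 in young soleus, against 0.0227 to 0.246 in old EDL and 0.0176 to 0.0356 in young EDL. Sequences are from RefSeq (GRCr8), in which 7 of 7 names looked up were found. Figures were drawn with Python 3.11.15 and matplotlib 3.10.9.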

Additional observations from a re-analysis of the deposited data

How the results depend on the processing

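Between soleus and EDL in old rats miR-181a differed by -2.16 with a percentile over all probes, -2.74 without scaling, -1.54 with quantile normalisation, -0.72 with spike-in scaling, -0.65 centred on the median, -2.11 with the gene signal, -0.79 with brightness as a covariate, -0.72 with undetected soleus arrays at their detection limit (added after seeing the data) and 0.11, reversed, with normexp. In young rats it moved to -2.05 over all probes, -2.05 without scaling, -0.43 with spike-ins, -0.50 with normexp, -1.79 with the gene signal and -0.78 at the detection limit. The causes were not tested. Against the median of all tested miRNAs it was -1.53 to -0.36 in old and -1.42 to -0.49 in young rats with all arrays. MiR-181a between old and young EDL kept its side of the threshold in all 15 settings (adjusted p 0.0525 to 0.997). Between old and young soleus, normexp gave 0.01 and spike-in scaling -0.61, which passed; adjusted p ranged from 0.00172 to 0.998. The difference of the age effects turned to 0.24 when centred on the median, 0.61 with normexp and 0.05 with brightness as a covariate. MiR-181b in EDL passed with quantile normalisation alone (-0.48; adjusted p over settings 0.00927 to 1). Leaving out 1 array gave -0.30 to -0.21 for miR-181a in EDL, -0.46 to -0.21 in soleus, -0.19 to 0.06 for the difference of age effects, -1.13 to -1.02 and -1.14 to -0.89 for soleus against EDL in old and young rats, and -0.43 to -0.29 for miR-181b in EDL.

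Deviations from group means of same-numbered EDL and soleus samples correlated at 0.07 to 0.43 in old rats, with 3 of 4 best with their own number. In young rats they correlated at -0.70 to 0.57, with 0 of 4 best with their own number. As the ages differed in this, the numbers were not taken as pairs, and whether they mark the same rats stays unknown. With the replicate block the miR-181a differences were -0.27 in EDL (adjusted p = 0.262, limma), -0.31 in soleus and -1.08 and -1.04 between muscles, and miR-181b in EDL was -0.34, with no call changed.

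The 13 miRNAs that passed between old and young EDL became 0 over all probes and without scaling, 22 with quantile normalisation, 1 with normexp, and 5 or 6 without young EDL 7, 8 or 9 or old EDL 1, 2 or 4. The 6 in soleus became 0 over all probes, unscaled and with normexp, 12 with quantile or median centring, 41 with spike-ins, 13 with the gene signal, 16 with the brightness covariate, and 1 or 2 without young soleus 8, 9 or 10 or old soleus 2 or 4. The 2 with differing age effects became 0 to 7. Between muscles 71 (old) and 64 (young) became 7 and 5 with normexp, 27 and 41 with the covariate, and 39 and 33 among the 54 miRNAs detected on all arrays. MiR-181b in soleus, below background, was given no value, nor was either member under that filter. Without a filter, 437 miRNAs at the floor on every array were left out.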
